A study of Mus musculus with 2 samples.

Results

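Ubr4 and Cdc27 encode parts of the ubiquitin system, and each carried 1 called peak in an HDAC4 chromatin immunoprecipitation and sequencing (ChIP-seq) experiment in mouse myoblasts. The pair was selected on the authors' annotated peak table, as the peaks to which that annotation gave the name Ubr4 or Cdc27. These are 2 of 229 peaks. A peak entered the table through its pileup (the number of ChIP fragments stacked over its highest point, the summit), its fold over the local input background and its q-value, so these values chose the members and are given as a description, with no test. The called peaks all passed a −log10 q of 2.00, the lowest among them had 2.80, and Cdc27 and Ubr4 lay at 7.61 and 22.4.

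Both libraries came from C2C12, an immortalized myoblast line of the C3H mouse strain, at passages 30 to 32 and after 24 h in growth medium, in which the cells proliferate. One was made from formaldehyde cross-linked chromatin pulled down with an antibody against HDAC4 (the ChIP library), and the other from chromatin taken with no antibody (the input). The labels name no modified allele and no drug for either of them. Rabbit IgG is named as a negative control in the labels, and no IgG library was analysed here. There was 1 library of each kind, so the spread between cultures is unknown and every interval below covers counting error only.

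Ubiquitin is a small protein that is attached to other proteins by E3 ligases, and chains of it send many of them to the proteasome. Ubr4 is a very large E3 ligase of the N-degron pathway, in which the first amino acid of a protein decides how fast it is destroyed. Cdc27, also called Apc3, is a subunit of the anaphase-promoting complex (APC/C), the E3 ligase that marks cyclin B and securin for destruction so that a cell can leave mitosis. HDAC4 is a class IIa histone deacetylase that does not bind DNA by itself and reaches chromatin through transcription factors such as those of the MEF2 family.

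The ChIP library held 10903000 mapped tags, of which 1920168 (17.6%) were kept after at most 1 tag was allowed at each position. The input held 19038793 and kept 17798166 (93.5%). Each kept input tag was therefore weighted by 0.108. Of the 229 peaks, 188 lay on chromosomes 1 to 19 or X with a pileup of up to 5 times the median, and these are called the ordinary peaks. The remainder were mitochondrial, unplaced or very high.

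The Ubr4 peak lay at the bidirectional start of the gene (Ensembl ENSMUSG00000066036.14, plus strand, chr4:139352609-139489588, mm10). It covered chr4:139380245-139380682, which is 438 bp, with its summit at 139380494, and the authors' annotation placed it upstream of the gene. The summit was 165 bp before the start shared by the transcripts Ubr4-201 and Ubr4-212, each with 106 exons, and 175 bp before that of Ubr4-204. It was also 115 bp before the start of 2700016F22Rik, a long intergenic non-coding RNA on the minus strand (chr4:139376549-139380379), which was the nearest start of another gene. The peak thus covered both divergent start sites, the 279 bases between them and 24 bp of the first exon of Ubr4-201. On the other side it ran from the start of 2700016F22Rik at 139380379 to 139380245, inside that gene. Another model, Ubr4-210, starts 27885 bp before the summit, beside the start of Emc1, and has the summit in intron 1 of its 28 exons. The RefSeq start of Ubr4 was at the same base as that of Ubr4-201.

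The sequence that separates the start sites is shown because the summit of the Ubr4 peak falls in it, at base 115. It is the plus strand of chr4:139380380-139380658 (GRCm38, the same build as mm10), 5′ to 3′, and capitals mark matches to the motifs searched.
Ubr4 to 2700016F22Rik interval: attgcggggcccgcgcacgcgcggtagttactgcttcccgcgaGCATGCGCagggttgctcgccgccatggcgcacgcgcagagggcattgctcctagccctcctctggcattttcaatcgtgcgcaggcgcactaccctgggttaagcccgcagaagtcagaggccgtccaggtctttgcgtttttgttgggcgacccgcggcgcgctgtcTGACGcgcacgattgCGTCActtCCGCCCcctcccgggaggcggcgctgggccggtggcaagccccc
It held 34 CpG dinucleotides and 68.1% G and C. An NRF1 motif (GCGCATGC, printed here from its other strand) occupied bases 44 to 51, with its centre 68 bp before the summit. An SP motif (GGGCGG, also on the other strand) occupied bases 236 to 241, at 123 bp past the summit. The core of the cyclic AMP response element (TGACG) stood at bases 213 to 217 and, on the other strand, 228 to 232.

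The Cdc27 peak lay just inside the gene (Ensembl ENSMUSG00000020687.13, minus strand, chr11:104502745-104550620). It covered chr11:104550169-104550465, which is 297 bp and equals the fragment length, the shortest length in the table. Its summit was at 104550308, and the authors' annotation called it intronic. The summit was 84 bp past the start of Cdc27-203, the only start site within the peak, 170 bp past that of Cdc27-202 and 175 bp past that of Cdc27-201. It was 312 bp past the start of Cdc27-205, a transcript with no coding sequence, which is also where the curated RefSeq transcripts of the gene start. In each of these 4 models the summit fell in intron 1. In Cdc27-201, which has 19 exons, the peak reached back over 103 bp of exon 1, 27 of them coding. Myl4, which encodes an embryonic and atrial myosin light chain, starts on the opposite strand (chr11:104550663-104595753) and had the nearest start of another gene in GENCODE, 355 bp from the summit and outside the peak. Among predicted RefSeq models of Myl4, 1 starts 221 bp from the summit, also outside the peak, and 1 starts beyond it, so that the summit falls 4291 bp inside that model. The starts of Cdc27-201 and Myl4-201 were 179 bases apart. The start of Cdc27-205 and of the curated RefSeq transcripts, at 104550620, lay closer to that of Myl4-201, at 104550663.

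The stretch from the first codon of Cdc27 to the end of the peak in intron 1 is shown because it holds the summit, at base 82. It is the minus strand of chr11:104550169-104550389, 5′ to 3′, and capitals mark the 27 coding bases of exon 1.
Cdc27 exon 1 and intron 1: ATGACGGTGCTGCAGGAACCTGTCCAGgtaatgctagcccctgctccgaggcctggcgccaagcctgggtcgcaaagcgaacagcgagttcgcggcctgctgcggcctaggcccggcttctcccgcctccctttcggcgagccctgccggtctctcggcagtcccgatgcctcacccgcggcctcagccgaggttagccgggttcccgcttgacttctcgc
It held 22 CpG dinucleotides and 68.3% G and C. The summit was 81 bp past the first base of the first codon and 55 bp past the last base of exon 1. The 1 motif match in it was the cyclic AMP response element core at bases 2 to 6, within the coding bases.

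**Figure D1:**
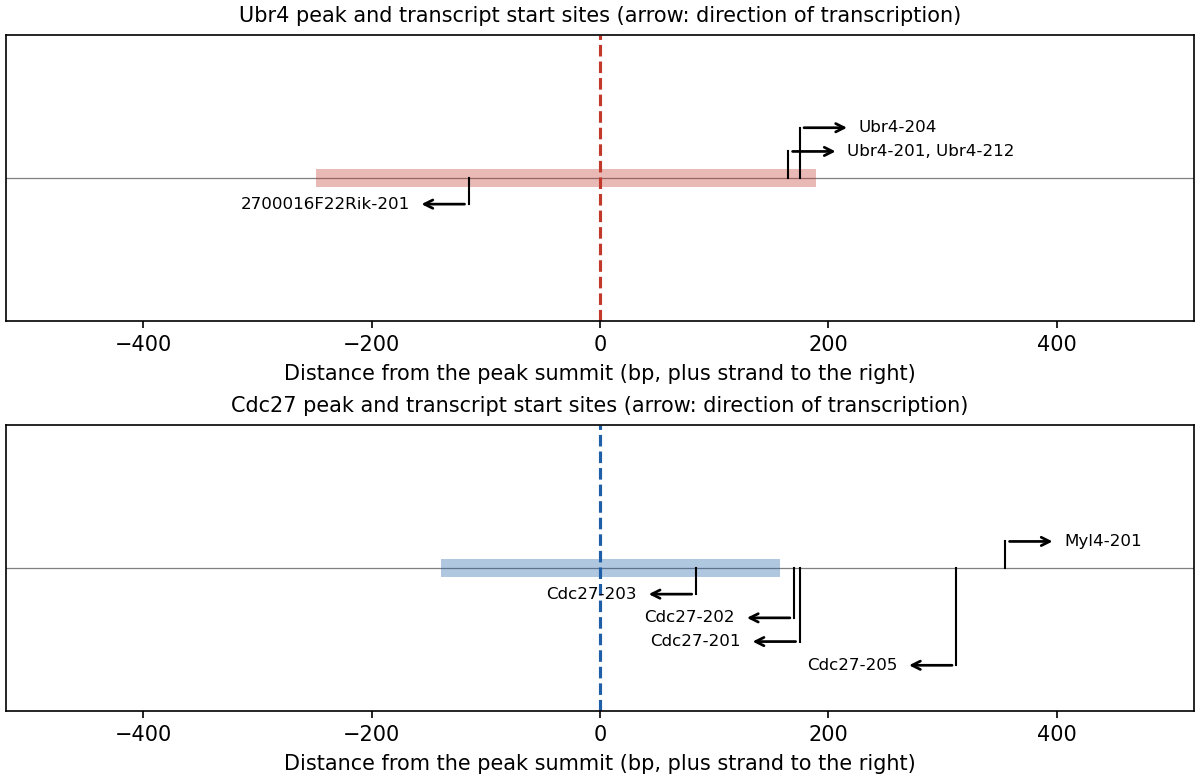
Positions of transcript start sites around the Ubr4 and Cdc27 summits, in bp from the summit (dashed line), with the extent of each peak shaded and arrows for the direction of transcription. At Ubr4 the summit sits between divergent start sites, 165 bp before Ubr4 and 115 bp before 2700016F22Rik. At Cdc27 it sits 84 bp past the nearest Cdc27 start, and Myl4 starts outside the peak.

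The Ubr4 peak had the highest fold over input of the 229. Its pileup was 19 tags (exact Poisson 95% interval 11.4 to 29.7), which is 9.89 tags per 1000000 kept ChIP tags. The input background recovered from its fold was 0.352 tags on the ChIP scale, or 3.27 input tags per 297 bp before weighting, which is 0.184 tags per 1000000 kept input tags. This was 1.16 times the genome-wide background of 2.83 input tags. The fold, as the caller defines it with 1 added to pileup and background, was 14.8 (9.20 to 22.7 when the limits of the pileup are put in its place). The −log10 p was 27.6 and the −log10 q was 22.4.

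The Cdc27 peak was weaker in every one of these measures and lay over more input. Its pileup was 12 tags (6.2 to 21), or 6.25 tags per 1000000 kept ChIP tags. Its background was 0.647 tags on the ChIP scale, equal to 6.0 input tags before weighting, which is 0.337 tags per 1000000 kept input tags and 2.12 times the genome-wide value. The fold was 7.89 (4.37 to 13.3), with a −log10 p of 12.5 and a −log10 q of 7.61.

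The pileup of Ubr4 was 1.58 times that of Cdc27, the background of Cdc27 was 1.84 times that of Ubr4, and the fold of Ubr4 was 1.87 times that of Cdc27. The intervals of the members overlapped for the pileup and for the fold, and those of the fold hold the background fixed. The difference between the members was not tested.

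The caller takes as background the highest of 4 values, namely the genome-wide mean and the input density in the fragment length, in 1 kb and in 10 kb around the summit. The candidates can be narrowed from the values, since the window that was used returns a whole number of input tags (within 0.01), although more than one can do so. Some window or the genome-wide value matched at 226 of 229 peaks. The 6.0 tags of Cdc27 were whole only in the fragment window, so 6 input tags lay over its own summit. The 3.27 tags of Ubr4 were whole not in the fragment window but as 11 tags in 1 kb or 110 in 10 kb. The input directly over the Ubr4 summit was therefore at most 3 tags, and its fold was set by the wider surroundings. Such a wider background was no exception, as the fragment window alone gave a whole number at 122 peaks.

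**Figure D2:**
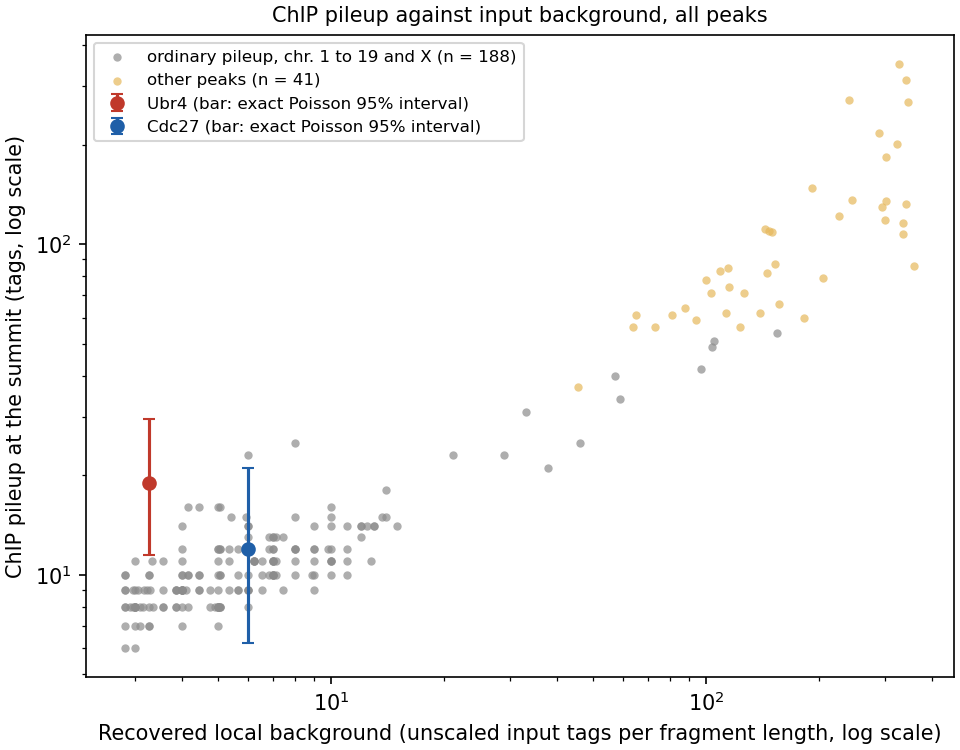
ChIP pileup at the summit (tags, log scale) against the recovered local background (input tags per fragment length before weighting, log scale) for all 229 peaks, with the 188 ordinary peaks in grey and exact Poisson 95% intervals on the members. Ubr4 combines 19 ChIP tags with 3.27 input tags, near the left edge of the cloud, and Cdc27 combines 12 with 6.0.

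The position of Ubr4 depended on the measure ranked. It was number 1 of 229 by fold, 33 by −log10 q and 55 by pileup, while by background it was 200, that is, among the lowest. The median peak had 11 tags (range 6 to 351), a fold of 6.72 (2.19 to 14.8), a −log10 q of 6.19 (2.80 to 208) and 6.24 input tags (2.83 to 359). Among the 188 ordinary peaks, whose median pileup was 10 tags and whose median fold was 6.84, Ubr4 was number 1 by fold, 3 by −log10 q, 14 by pileup and 159 by background. No other peak had exactly 19 tags. Counting Ubr4 itself, 12 peaks had a fold at or above its lower limit of 9.20.

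Cdc27 stood in the upper part of the list by fold and closer to its middle by pileup, −log10 q and background, while in length it was tied with the shortest. It was number 39 of 229 by fold, 87 by pileup, 89 by −log10 q, 118 by background and 168 by length. Among the ordinary peaks it was number 36, 46, 49 and 77 by the first 4 of these. Its fold was the 9th highest of the 22 peaks with 12 tags, which ranged from 5.94 to 9.08 with a median of 7.69. In all, 211 peaks had a fold at or above its lower limit of 4.37 and 3 had one at or above its upper limit of 13.3.

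**Figure D3:**
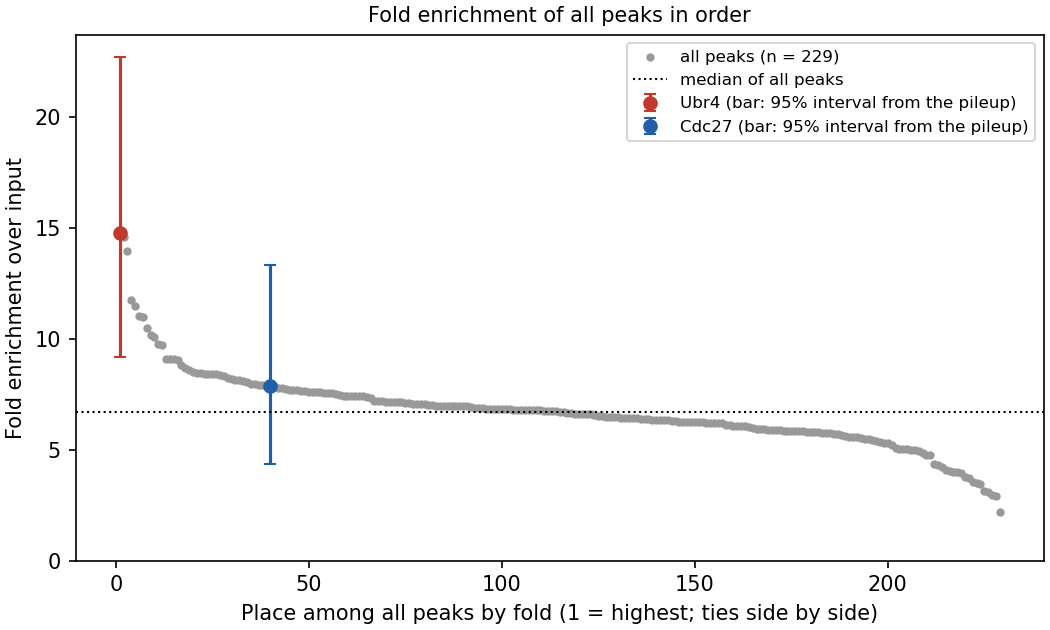
Fold over input of all 229 peaks in descending order (place 1 is the highest), with a dotted line at the median of 6.72. The bars on Ubr4 (14.8, place 1) and Cdc27 (7.89, place 39) are 95% intervals from the pileup, and they overlap each other.

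The peaks next to the members in this order gave the same picture of close ties. Directly below Ubr4 came Txnl4a, which encodes a protein of the U5 spliceosomal particle, with 23 tags, 6.0 input tags and a fold of 14.6. By the summed difference in log2 pileup and log2 fold, taken over the 1 ChIP and 1 input library, Txnl4a was also the most like Ubr4 (0.30). It was followed by the peak given to both Polh, a DNA polymerase that copies damaged templates, and Xpo5, the exporter of miRNA precursors, with 25 tags and a fold of 14 (0.48), and by 1110006O24Rik with 16 tags and a fold of 11.7 (0.58). Cdc27 shared its 12 tags, its 6.0 input tags and its fold of 7.89 with the peaks of E230016M11Rik and of Fut11, a fucosyltransferase gene, so the place 39 was held by 3 peaks. The next most like was 0610009L18Rik, with 12 tags and a fold of 7.92 (0.01).

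Neither member was part of a cluster of peaks. The nearest other peak to that of Ubr4 was 1715767 bp away at Rap1gap, a regulator of the small GTPase Rap1, with 9 tags and a fold of 7.52, among 19 peaks on chromosome 4. The nearest to Cdc27 was 318969 bp away at Mapt, the tau gene, with 11 tags and a fold of 5.77, among 22 on chromosome 11.

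Both members belong to pairs of genes that start close together on opposite strands, a feature that the choice of peaks did not use. Of 176 protein-coding genes with a start within 1 kb of a summit, 54 (30.7%) had a start on the opposite strand within 1000 bp upstream, against 3415 of 21842 protein-coding genes in all (15.6%). The members are 2 of those 54. The count is of genes, so a single peak near both starts of a coding pair, as at Cdc27 and Myl4, can enter both genes. The shares were not adjusted for this, and their difference was not tested. The base of 21842 genes also differs from the 21924 used for the gene counts below. At Ubr4 the peak covered both starts of the pair. At Cdc27 it covered the start of Cdc27-203, but not those of Cdc27-201 and Myl4-201.

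The DNA around both summits was rich in CpG dinucleotides. In the 300 bp around the Ubr4 summit, G and C made up 65.7%, there were 34 CpG dinucleotides, and the CpG count was 1.05 times that predicted from the base content. For Cdc27 these values were 69.3%, 26 and 0.721. Among the 213 peaks with sequence used here, the medians were 68.3%, 29 and 0.855, and over 32851 RefSeq promoters of the same length they were 52.7%, 7 and 0.384. By the CpG ratio Ubr4 was number 30 of 213 and Cdc27 was 153, and neither window held any repeat sequence. Both were close to the other peaks and above the median promoter, as was the median peak.

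**Figure D4:**
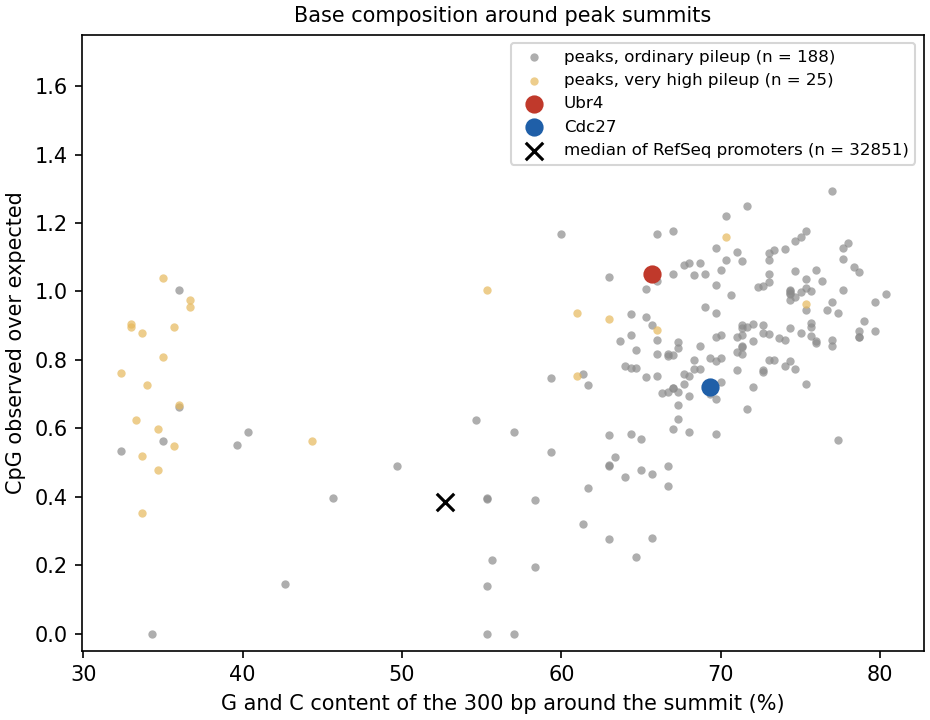
CpG observed over expected against G and C content (%) in the 300 bp around each of 213 summits, with the median of 32851 RefSeq promoters as a cross. Ubr4 (65.7%, 1.05) and Cdc27 (69.3%, 0.721) lie within the cloud of peaks, both above the cross (52.7%, 0.384).

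Of 10 motifs searched on both strands, 3 had a match in the Ubr4 summit window. The NRF1 motif, the rarest of these, was in 5.63% of the 213 peak windows and 2.71% of the 32851 RefSeq promoters, the SP motif in 57.3% and 35.7%, and the TGACG core, which is contained in the full element TGACGTCA, in 29.6% and 20.8%. The Cdc27 window held only the TGACG core. Neither window had a match to the ETS (CCGGAA), YY1 (AAGATGGC), full cyclic AMP response element, CCAAT, E-box (CANNTG), AP-1 (TGANTCA) or MEF2 motif. The MEF2 motif, through which HDAC4 is known to be recruited, was in 1.41% of peak windows and 3.19% of promoters. Its letters are mostly A and T. The median G and C content was 68.3% in the peak windows and 52.7% in the promoters. The promoter windows also lay mostly before the start site, whereas the peak windows were centred on the summit. The motif shares are thus not compared at equal base content or position, and their differences were not tested. The RefSeq promoter of Ubr4, a 300-base window around its start, overlapped the peak by 274 bp, whereas that of Cdc27 ended 105 bp short of its peak. Each promoter held motifs with no match in the summit window, namely 1 YY1 match at Ubr4 and 2 ETS and 2 CCAAT matches at Cdc27. A match to letters is a description and not a bound site.

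Genes of the ubiquitin system, together with inhibitors and substrates of the APC/C, were then counted by the authors' gene names. The 51 peaks that the annotation placed between genes were left out. Over all 21924 protein-coding genes, 164 (0.748%) carried a peak. In 6 lists of 92 genes the count was 4 (4.35%), and it included Ubr4 and Cdc27, which were chosen for having a peak. All 6 lists were written with earlier results of these data known. The share is therefore not a separate observation, for the other genes of the lists either. Of 14 core subunits of the APC/C, Cdc27 alone had a peak, and its partners in the arm that holds the activators, Cdc16, Cdc23 and Anapc7, had none. None was called at the 8 activators, E2 enzymes and inhibitors of the complex, among them Cdc20, Fzr1 and Fbxo5, or at 11 of its substrates, such as Ccnb1 and Pttg1. Of 12 genes of the N-degron pathway, Ubr4 alone had one, and its relatives Ubr1 and Ubr2 and its partner Kcmf1 had none. The 14 ligases known from muscle, which include the atrophy genes Trim63 and Fbxo32, had none. With 1920168 kept ChIP tags, a gene with no peak cannot be called unbound. At the share of 0.748% over all genes, most lists this short would hold no peak.

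The members outside these complexes were Smurf2 and Mdm2, 2 of 33 further ligases. Smurf2, a ligase that acts on the Smad proteins of TGF-β and BMP signalling, had 12 tags (6.2 to 21) and a fold of 8.44 (4.68 to 14.3), place 21, at chr11:106920517-106920883, with the summit 4 bp before a start site. Mdm2, the ligase of p53, had 9 tags (4.12 to 17.1) and a fold of 6.61 (3.38 to 12.0), place 119, at chr10:117710029-117710325, with the summit 54 bp before the start of Mdm2-206. The Smurf2 peak had the same pileup as that of Cdc27 over 5.00 input tags in place of 6.0, and the Mdm2 peak fell near the median fold. Among these 4 ligase genes, the interval of the Ubr4 fold overlapped all the others.

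Taking a start site within 1 kb of the summit in place of the authors' names gave 4 list genes of 177 genes in all (0.807% of protein-coding genes), and within 5 kb it gave 4 of 231 (1.05%). With a −log10 q of at least 5 there were 3 of 114 (0.52%), since Mdm2 lay at 4.97. A broader list, chosen after seeing the data, took the 210 genes whose RefSeq description contains the word ubiquitin, and 5 of them (2.38%) had a peak by the same count. Besides Ubr4 and Smurf2 these were Usp10, a ubiquitin-removing protease, Ube2e3, an E2 conjugating enzyme, and Siah2, a RING-type ligase. Usp10 had 13 tags and a fold of 7.91 with the summit 7 bp before its start, Ube2e3 had 8 tags and 6.80, and Siah2 had 7 tags and 5.59 with the summit 1508 bp into the gene. The Usp10 fold was nearly that of Cdc27, at place 38. The name of Ube2e2, another E2 enzyme, stood beside 1 of the peaks between genes, with 201 tags and a fold of 5.65 over 322 input tags, and it was not counted.

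**Figure D5:**
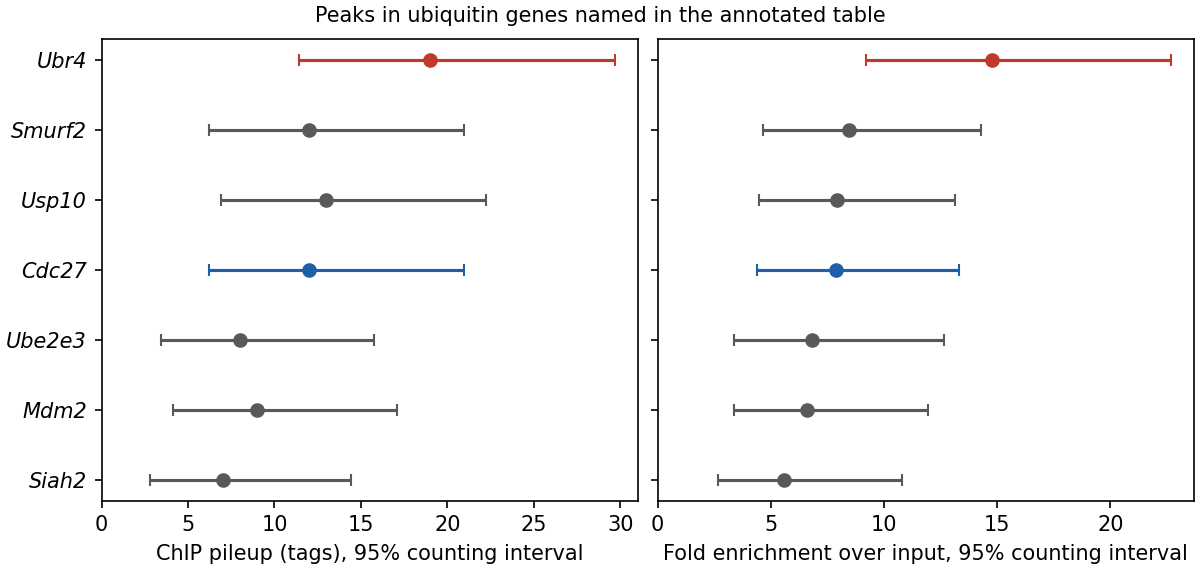
ChIP pileup (tags, left) and fold over input (right) of the 7 genes of the 6 lists and the broader list that were counted with a peak, with 95% counting intervals, in order of fold. Ubr4 lies highest with 19 tags and 14.8-fold, Cdc27 is among plotted genes of 7 to 13 tags and 5.59-fold to 8.44-fold, and the intervals overlap.

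The other deposited table lists the same 229 peaks and carries remarks typed in by hand. For Ubr4 the cells after the peak name were empty, as they were for 63 of 229 peaks. For Cdc27 there was a gene symbol, the name of its transcript variant 1 and, in the cell meant for a gene identifier, the Italian words "non cambia" (does not change). The same words stood beside 6 genes, namely Fzd5, Nog, Cdc27, Smurf2, Dmtn and Ywhaz, and in 1 of them, Fzd5, together with a mention of RNA-seq. For Cdc27 the remark does not say what was measured or in which cells, so it is given here as a note and not as a value.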

How the data were processed

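HDAC4 ChIP and input libraries of C2C12 cells (1 each) were analysed from the 2 peak tables that the authors deposited. Per the labels, the submitters used CASAVA 1.8.2, then cutadapt and Bowtie2 (versions not given in the sources used here) and MACS2, with the build mm10. The file header gives MACS 2.1.0.20150316 with a q cutoff of 0.01, 297 bp fragments and at most 1 tag per position. Peaks were called by the authors on single libraries. The authors deposited the pileup as a signal in tags, the fold as a ratio with a pseudocount of 1, and −log10 p and −log10 q values. In the other deposited table these columns had become scores without a decimal point, so it served for its notes alone.

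Background was recovered as (pileup + 1) / fold − 1, and recomputed −log10 p values differed by at most 0.000142. Pileup limits are exact Poisson 95% intervals. Start sites came from GENCODE, and sequences and promoters from GRCm38 and RefSeq (GRCm38.p6). For 16 mitochondrial or unplaced peaks no sequence was used. Python 3.11.15, pandas 2.3.3, scipy 1.17.1 and pysam 0.24.0 were used, and scripts were tested on simulated data. Members and lists were chosen with earlier results of these data known. Named genes were the members, list genes with a peak, the nearest other start, rank neighbours and the 3 most similar peaks, and genes from the broader list, the nearest other peaks and the notes were added after their values were seen. Alternatives varied the threshold, gene assignment, pseudocount, input scale and ranking.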

Additional observations from a re-analysis of the deposited data

How the results depend on the processing

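Of 16 alternative values, 10 were classed as the same and 6 as moved, a tally that is not a measure of robustness. Both members had a peak under each of the 4 other thresholds and gene assignments tried. These 4 add nothing new, since the members were chosen for having a peak and their q-values and start-site distances are given above. Dropping the pseudocount raised the fold of Ubr4 from 14.8 to 53.9 and that of Cdc27 from 7.89 to 18.5. A rise was given by construction, since each pileup exceeded its background. It was large because both backgrounds were under 1 tag on the ChIP scale. Weighting the input by all mapped tags (0.573) in place of kept tags (0.108) lowered the folds to 6.97 and 2.93, by construction as well. Ranked by −log10 q, Ubr4 moved from place 1 to 33 and Cdc27 from 39 to 89, and the cause was not tested. Among the ordinary peaks their places were 1 and 36 by fold and 3 and 49 by −log10 q. The count of genes of the 6 lists with a peak was 4 under both start-site rules and 3 with the stricter q-value. The broader list, added after seeing the data, gave 5 by the authors' names and 4 to 6 under the other rules. Ubr4 kept the higher fold of the members under both other definitions of the fold. That order was also fixed by construction, since Ubr4 had the higher pileup and the lower background. No paired analysis was possible because there was a single ChIP and a single input library, and for the same reason no replicate could be left out. The few kept ChIP tags limit every pileup, and those of the members carry intervals from 11.4 to 29.7 and from 6.2 to 21 tags.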

Other observations

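Besides the list genes, Herc4 and Trim8, which encode ubiquitin ligases of the HECT and TRIM families, were noticed among the named peaks after the values were seen. They are not a full count of such genes, and the lists above do not hold every ligase gene with a peak. Herc4 had a pileup of 13 tags and a fold of 7.77, close to the 7.89 of Cdc27. Trim8 had 8 tags and a fold of 5.89, below the median fold of 6.72 over the 229 peaks. Isg15, the gene of a ubiquitin-like modifier, starts 2779 bp from a summit with 9 tags and a fold of 6.07, which the authors' annotation did not give to it.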
